A study of Mus musculus with 26 samples.

Results

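The circadian clock genes Arntl, Clock, Per1, Per2, Per3, Cry1, Cry2, Nr1d1, Nr1d2 and Dbp were followed in the fat of lean, obese and formerly obese mice. They were chosen by symbol, and all 10 were found as 1 row each among the 39017 gene rows of the adipocyte table and of the stromal vascular cell (SVC) table. Male C57BL/6J mice with no genetic change named in the labels, 9 to 10 weeks old when the diets began, were fed for 12 weeks. The LFD group ate a 10% fat diet throughout and the HFD group a 60% fat diet throughout, while the SW group ate the 60% fat diet for 9 weeks and then the 10% fat diet for 3 weeks. Epididymal white fat was digested and separated into floating adipocytes and pelleted SVC, and RNA of each fraction was sequenced, giving 9 adipocyte libraries (3 for each diet) and 6 SVC libraries (1 LFD, 2 HFD and 3 SW) that could be used. The time of day at which the tissue was taken is not given in the sources used here, so the values are levels at an unstated clock time and say nothing of rhythm.

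The mammalian clock is a loop of transcription and repression that runs in nearly every cell. Arntl (also called Bmal1) and Clock form the activating pair, which binds E-box motifs. Among its targets are the period genes Per1, Per2 and Per3 and the cryptochromes Cry1 and Cry2, whose proteins return to the nucleus and repress the pair. The same pair drives Nr1d1 and Nr1d2, which encode the heme-binding nuclear receptors REV-ERB alpha and beta and repress Arntl and Clock through ROR elements, and Dbp, a PAR bZIP factor that activates genes through D-box motifs. In fat, clock genes cycle over the day, and the timing of meals and fat-rich diets are known to act on them.

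Because the members are tied to each other through these motifs, the region around their start sites is shown for the members called between HFD and LFD adipocytes whose window held a motif. RefSeq windows (GRCm38.p6, 300 bases, 250 before the start site and 50 from it onward) were on hand for 9 of the 10 members in 13 windows. Both strands were searched for the E-box CACGTG, its variant CACGTT, the D-box TTANGTAA and the ROR element core TAGGTCA, and 6 windows of 6 members held a match, none overlapping another. In the lines below, on the strand of the gene and 5′ to 3′, capitals mark the match, on either strand.
Arntl, chr7:113207261-113207560 (+), ROR element core: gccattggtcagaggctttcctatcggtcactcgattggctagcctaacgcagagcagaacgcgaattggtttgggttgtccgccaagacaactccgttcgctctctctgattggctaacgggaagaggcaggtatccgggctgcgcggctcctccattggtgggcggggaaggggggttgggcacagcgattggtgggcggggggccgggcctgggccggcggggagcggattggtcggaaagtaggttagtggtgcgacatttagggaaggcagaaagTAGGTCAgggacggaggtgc
Per3, chr4:151044616-151044915 (-), D-box: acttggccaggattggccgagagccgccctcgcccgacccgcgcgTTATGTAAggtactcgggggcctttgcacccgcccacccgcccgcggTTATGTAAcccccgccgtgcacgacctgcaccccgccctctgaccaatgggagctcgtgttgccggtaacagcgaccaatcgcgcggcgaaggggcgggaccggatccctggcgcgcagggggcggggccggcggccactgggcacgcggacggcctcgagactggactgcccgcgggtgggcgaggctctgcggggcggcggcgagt
Cry2, chr2:92434020-92434319 (-), E-box variant on the opposite strand: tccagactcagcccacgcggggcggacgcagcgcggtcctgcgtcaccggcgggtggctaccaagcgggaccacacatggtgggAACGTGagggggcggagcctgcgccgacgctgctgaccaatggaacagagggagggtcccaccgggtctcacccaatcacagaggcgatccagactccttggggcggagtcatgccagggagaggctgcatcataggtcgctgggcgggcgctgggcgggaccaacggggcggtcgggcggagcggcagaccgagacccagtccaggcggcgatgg
Nr1d1, chr11:98775328-98775627 (-), E-box variant on the opposite strand: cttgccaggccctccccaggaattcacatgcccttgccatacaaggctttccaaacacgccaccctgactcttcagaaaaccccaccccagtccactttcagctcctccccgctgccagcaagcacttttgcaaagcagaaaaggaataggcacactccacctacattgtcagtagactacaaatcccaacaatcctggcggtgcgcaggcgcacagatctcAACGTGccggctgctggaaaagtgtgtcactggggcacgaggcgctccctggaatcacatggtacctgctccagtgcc

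With the start site counted as 1 and the base before it as -1, the ROR core of Arntl began at 31, the D-boxes of Per3 at -205 and -158, the variant E-box of Cry2 at -166 and that of Nr1d1 at -28. Per1 held CACGTG at -166, and Cry1 held CACGTG at -60 and CACGTT at -79. No window of Clock, Nr1d2 or Dbp held any of these letters. Of 32851 promoter windows in the same table, 7.15% held CACGTG, 4.68% CACGTT, 2.32% TTANGTAA and 2.61% TAGGTCA. These matches describe the sequence only.

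The libraries held between 5781902 and 23725647 estimated counts. The members rested on between 56 and 2366 counts each in an adipocyte library and between 12 and 2490 in an SVC library, with the lowest counts for Per2, Per3 and Cry1 in both fractions. Levels are given as CPM (counts scaled to 1e6 per library with TMM factors), and the libraries of a group are numbered from 1 in the order in which their values are listed. Differences are log2 fold changes with their standard error (SE) from edgeR's quasi-likelihood test over all genes, and a gene is called changed at a Benjamini-Hochberg adjusted p under 0.05. In a bulk sample, fewer cells of a type and less RNA per cell cannot be told apart.

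In adipocytes of HFD mice 6 of the 10 clock genes differed from LFD mice. The activators Arntl and Clock were higher than in LFD mice, by 1.35-fold each, and the repressors Per3 and Cry2, the nuclear receptor Nr1d1 and the output factor Dbp were lower, by 2.06-, 1.77-, 2.21- and 1.94-fold. Thus 2 of the 10 members rose and 4 fell, beside 26.5% of all genes tested that rose and 25% that fell, while the repressors Per1, Per2 and Cry1 and the nuclear receptor Nr1d2 did not pass. The median log2 fold change of the members was -0.51, and that of all 14461 genes tested -0.03. The groups of 3 did not overlap for 8 members (Arntl and Clock higher in HFD, Per1, Per2, Per3, Cry2, Nr1d1 and Dbp lower), and they did not overlap for 62.7% of all genes.

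The activating pair was highest in the HFD mice. Arntl stood at 17.9, 18.9 and 20.2 CPM in the LFD libraries, at 28.6, 24.5 and 24.4 in the HFD libraries and at 12.9, 18.5 and 17.7 in the SW libraries. Every HFD library was above every other, and the LFD and SW ranges overlapped. The rise from LFD to HFD was 0.44 (SE 0.15, adjusted p = 0.0308). Clock, whose product pairs with that of Arntl, stood at 47.4, 36.4 and 39.6 CPM in LFD, at 53.7, 56.5 and 55.8 in HFD and at 27.8, 39.0 and 38.2 in SW. Its rise was 0.43 (SE 0.15, adjusted p = 0.0322). Both calls lie close to the threshold and were lost with upper-quartile scaling, thinned counts or a GC correction. Arntl lost its call when HFD library 1 or 3 or LFD library 1, 2 or 3 was left out (log2 fold changes 0.36 to 0.49), and Clock when HFD library 1, 2 or 3 or LFD library 2 or 3 was left out (0.35 to 0.45).

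Of the period genes, Per3 changed most. It stood at 13.8, 13.2 and 13.7 CPM in LFD, at 5.79, 7.39 and 6.39 in HFD and at 7.46, 13.0 and 11.5 in SW. The LFD libraries lay close together and above every HFD library, and the fall was -1.05 (SE 0.20, adjusted p = 0.00186). Per1, which also answers to glucocorticoids and to acute signals, stood at 44.7, 47.9 and 49.4 CPM in LFD, at 25.3, 44.6 and 18.3 in HFD and at 42.3, 59.5 and 50.7 in SW. Its HFD libraries spread more, relative to their mean, than those of any other member, and its difference of -0.68 (SE 0.27, adjusted p = 0.0583) was not called by edgeR. It was called with upper-quartile factors (-0.78, adjusted p = 0.0374), by DESeq2 (-0.67, adjusted p = 0.0489) and by limma-voom (-0.78, adjusted p = 0.0353). Without HFD library 2, the highest of the 3, it was -1.11 (adjusted p = 0.0016). Per2 ran from 7.65 to 9.04 CPM in LFD, from 5.63 to 7.47 in HFD and from 5.89 to 8.23 in SW, and its difference of -0.33 (SE 0.19, adjusted p = 0.157) did not pass.

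The cryptochromes differed from each other. Cry2 stood at 46.3, 51.5 and 41.4 CPM in LFD, at 21.9, 29.0 and 28.0 in HFD and at 35.5, 39.3 and 47.5 in SW. All HFD libraries were below all others, and the fall was -0.82 (SE 0.15, adjusted p = 0.00166). Cry1, the paralog, ran from 8.88 to 15.4 CPM in LFD, from 9.54 to 10.5 in HFD and from 7.93 to 10.5 in SW. Its 3 groups overlapped, with a difference of -0.22 (SE 0.20, adjusted p = 0.375).

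The REV-ERB genes differed from each other as well. Nr1d1 stood at 115, 122 and 94.7 CPM in LFD, at 48.0, 52.7 and 49.7 in HFD and at 70.1, 132 and 101 in SW. The HFD libraries lay within a narrow range below all others, and the fall of -1.14 (SE 0.20, adjusted p = 0.00122) was the largest among the members. Nr1d2, its paralog, ran from 36.5 to 53.9 CPM in LFD, from 29.7 to 41.6 in HFD and from 27.6 to 50.0 in SW, with a difference of -0.24 (SE 0.23, adjusted p = 0.393). Dbp stood at 22.0, 19.4 and 14.2 CPM in LFD, at 9.02, 8.85 and 10.8 in HFD and at 17.5, 22.1 and 21.8 in SW. Its HFD level was below every LFD and SW library, and the fall was -0.95 (SE 0.18, adjusted p = 0.00164). The calls of Per3, Cry2, Nr1d1 and Dbp held without any single library and under all 8 other processing choices.

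**Figure D1:**
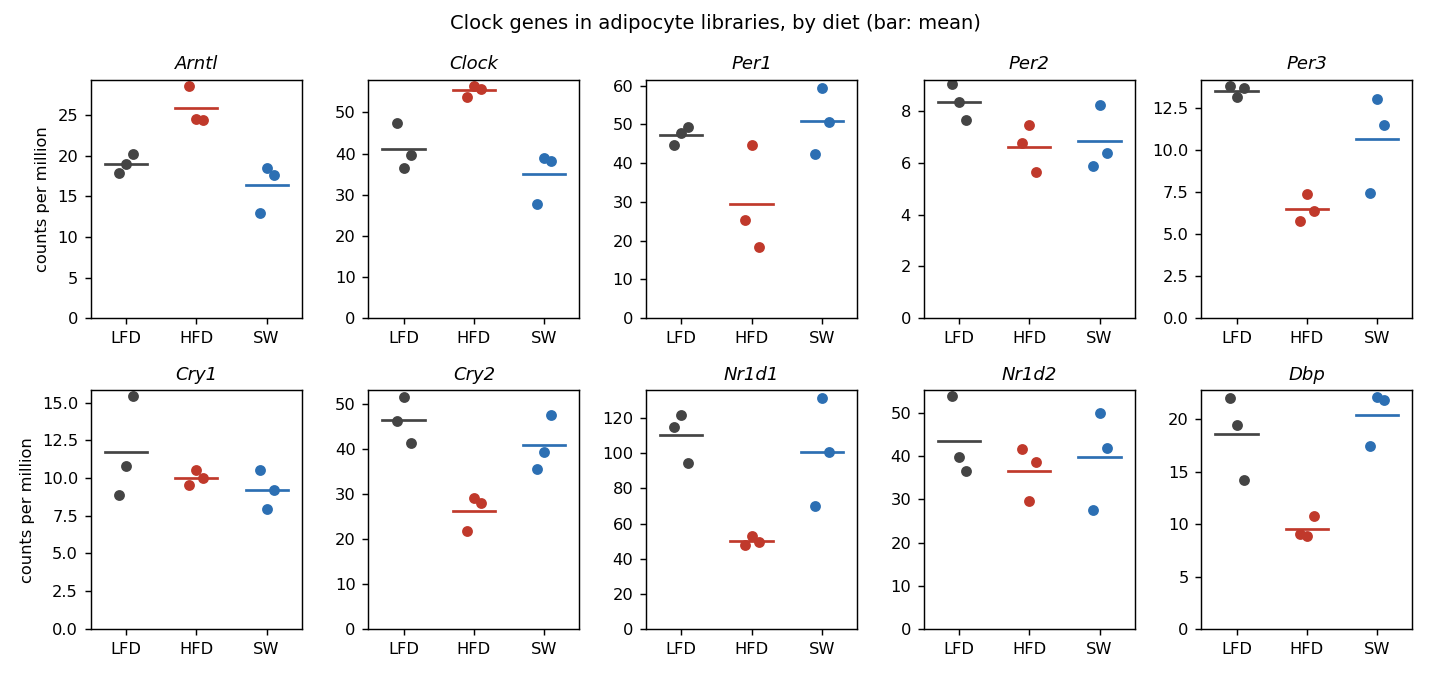
Levels of the 10 clock genes in adipocyte libraries, in CPM (each vertical axis from 0), for LFD, HFD and SW mice. Each point is 1 library and each bar the mean of 3; the HFD points of Arntl and Clock lie above, and those of Per3, Cry2, Nr1d1 and Dbp below, all LFD points.

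Some members share exon bases with a gene on the opposite strand, and whether the counting used strand is not stated. Nr1d1 shares 263 of its 3077 exon bases with Thra, the thyroid hormone receptor alpha gene, which moved the same way. In adipocytes Thra differed by -0.83 (SE 0.12, adjusted p = 0.00039) for HFD against LFD and by 0.57 (SE 0.12, adjusted p = 0.00947) for SW against HFD. In SVC it differed by 1.62 (SE 0.21, adjusted p = 0.0362) for SW against HFD. Dbp shares 539 of 2993 bases with Sphk2, a sphingosine kinase gene. In adipocytes Sphk2 differed by 0.06 (SE 0.14, adjusted p = 0.75) for HFD against LFD and by 0.24 (SE 0.14, adjusted p = 0.22) for SW against HFD. In SVC it differed by 0.70 (SE 0.27, adjusted p = 0.104) for SW against HFD. Cry2 shares 295 of 6320 bases with D930015M05Rik, which was too low to be tested, and Arntl shares 33 of 7523 with Gm45355, not among the rows. For these pairs the reads of the shared bases cannot be told apart, and their part in the values was not tested.

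The diet switch was compared with HFD next, to see which members moved back. After 3 weeks on the low-fat diet, Arntl and Clock were lower than in HFD mice and Per1, Per3, Cry2, Nr1d1 and Dbp higher. That made 5 members called higher and 2 called lower, beside 15.6% and 15.9% of all genes. The groups did not overlap for 6 members (Per3, Cry2, Nr1d1 and Dbp higher in SW, Arntl and Clock lower), beside 48.6% of all genes. The comparison shares its HFD libraries with the one above, so the opposite signs are not independent of it.

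Dbp was 1.10 higher in SW than in HFD mice (SE 0.18, adjusted p = 0.00487), a 2.14-fold rise. Nr1d1 rose by 1.01 (SE 0.20, adjusted p = 0.00824), 2.02-fold, although SW library 1 (70.1 CPM) stayed well under the others. Per3 rose by 0.72 (SE 0.20, adjusted p = 0.0235) and Cry2 by 0.63 (SE 0.15, adjusted p = 0.0149). Arntl changed by -0.65 (SE 0.15, adjusted p = 0.0122) and Clock by -0.66 (SE 0.15, adjusted p = 0.0118). The calls of Arntl, Clock, Cry2, Nr1d1 and Dbp were kept without any single library, whereas Per3 lost its call without HFD library 1 or 3 or SW library 2 or 3 (0.53 to 0.68). Per1 rose by 0.79 (SE 0.27, adjusted p = 0.0498), and only leaving out HFD library 2 kept that call. Without any one of the other 8 libraries its adjusted p ran from 0.0531 to 0.138, and the call was also lost under 4 of the 8 other processing choices. Per2 (0.05, SE 0.18), Cry1 (-0.13, SE 0.20) and Nr1d2 (0.13, SE 0.23) did not pass.

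Against LFD mice, none of the 10 members was called in SW adipocytes by edgeR's quasi-likelihood test after adjustment, while 10.9% of all genes were called higher and 6.18% lower. None had an unadjusted p under 0.05, and none was called by DESeq2 or limma-voom. The differences ran from -0.35 for Cry1 (SE 0.20) to 0.14 for Dbp (SE 0.18), with SEs of 0.15 to 0.27, and none of them is shown to be 0. Arntl differed by -0.21 (SE 0.15) and Clock by -0.22 (SE 0.15). Among the repressors, Per1 differed by 0.10 (SE 0.27), Per2 by -0.28 (SE 0.19), Per3 by -0.33 (SE 0.20) and Cry2 by -0.19 (SE 0.15). Nr1d1 differed by -0.13 (SE 0.20) and Nr1d2 by -0.11 (SE 0.23). The groups did not overlap for 1 member, Per3, whose SW libraries all lay below its LFD libraries (7.46 to 13.0 against 13.2 to 13.8 CPM), beside 36.7% of all genes without overlap.

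**Figure D2:**
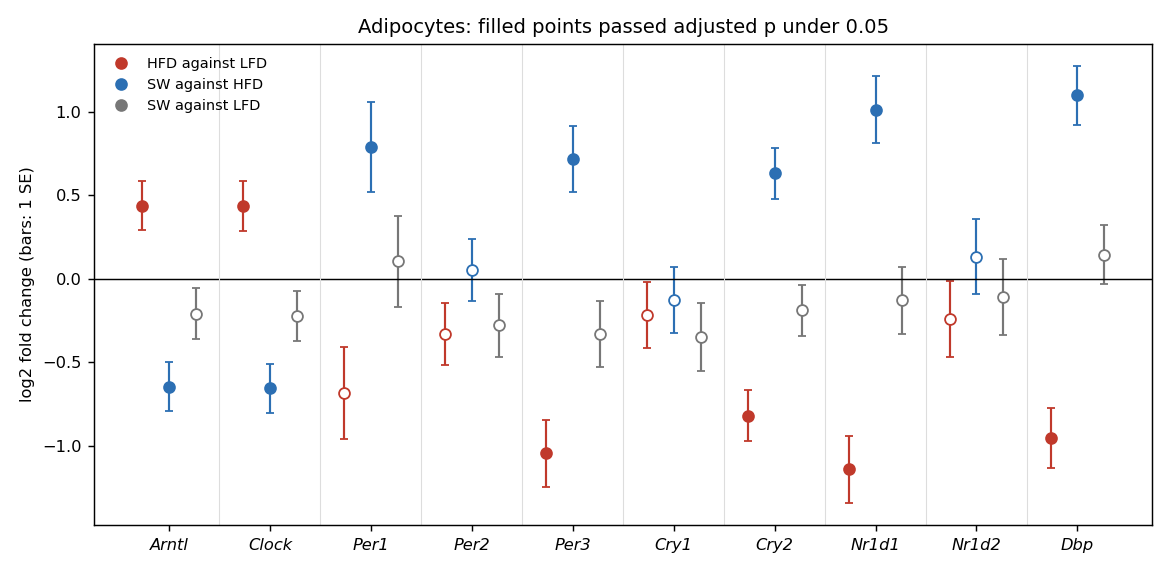
Log2 fold changes of the clock genes in adipocytes for the 3 diet comparisons, with bars of 1 SE and filled points for an adjusted p under 0.05. Arntl and Clock lie above 0 for HFD against LFD and below 0 for SW against HFD; Per3, Cry2, Nr1d1 and Dbp show the opposite order, and no point of SW against LFD is filled.

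The share of the diet effect that had been undone was described by setting the HFD to SW change over that between HFD and LFD, so that 1 is a full return. It was 0.685 for Per3, 0.771 for Cry2, 0.886 for Nr1d1, 1.15 for Dbp, 1.48 for Arntl and 1.51 for Clock. The median of these 6 called members was 1.02, and that of all 7448 genes called between HFD and LFD was 0.576, with quartiles of 0.309 and 0.815. The members' median leans on Arntl and Clock, whose ratios divide by the smallest called changes (0.44 and 0.43). Their calls lay close to the threshold and depended on processing and on single libraries. The other called members ran from 0.685 to 1.15. The ratio divides values that share the HFD libraries and was not tested.

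The ratio of 2 members within a library does not depend on its total. The log2 ratio of Arntl to Dbp counts was -0.30 to 0.50 in LFD, 1.17 to 1.66 in HFD and -0.43 to -0.26 in SW adipocyte libraries. Arntl to Nr1d1 ran from -2.69 to -2.23 in LFD, from -1.11 to -0.75 in HFD and from -2.83 to -2.43 in SW. Clock to Nr1d1 ran from -1.74 to -1.26, from 0.10 to 0.17 and from -1.75 to -1.34. In each ratio the HFD libraries stood apart, and the LFD and SW ranges overlapped. Each pair sets a member called higher in HFD against a member called lower. The separation therefore follows from the levels above and is not a further test.

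**Figure D3:**
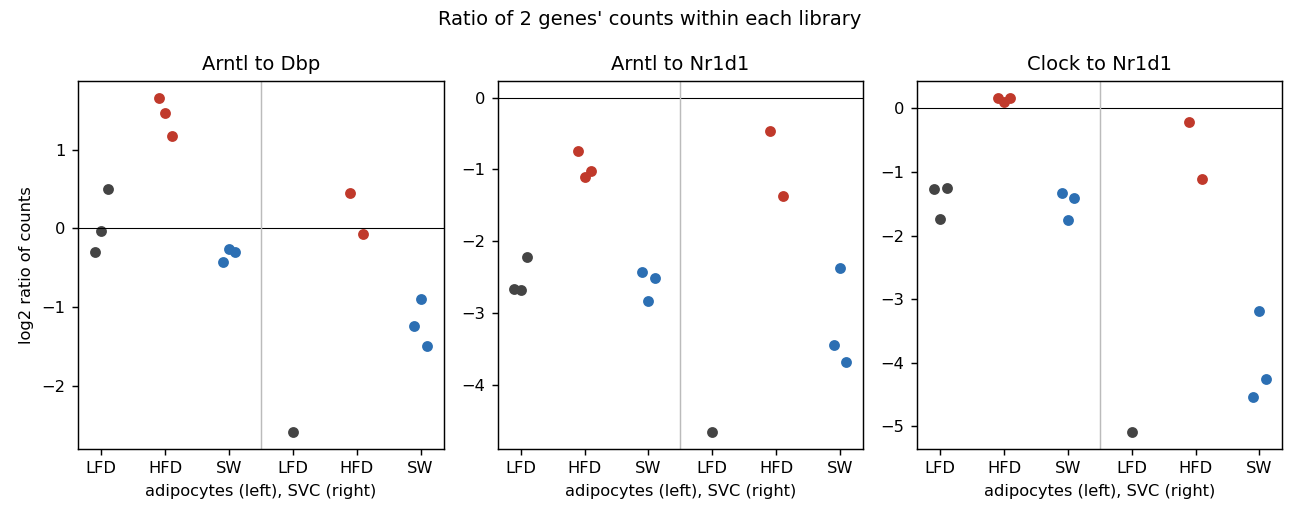
Log2 ratios of the counts of 2 members within each library, Arntl to Dbp, Arntl to Nr1d1 and Clock to Nr1d1, for adipocytes (left of the grey line) and SVC (right), with 1 point per library. HFD adipocyte libraries stand above LFD and SW in all 3 ratios, and the single LFD SVC library is the lowest point in each.

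The cell make-up of the adipocyte fraction moved with diet too. The summed level of 11 macrophage markers was 690 to 1148 CPM in LFD, 8141 to 9441 in HFD and 5896 to 8737 in SW libraries, and all 11 were called higher in HFD and in SW than in LFD mice. The 10 adipocyte markers summed to 33140 to 51579 CPM in LFD, 12238 to 20572 in HFD and 28317 to 29586 in SW, with 7 called lower in HFD than in LFD and 5 called higher in SW than in HFD. The part of cell make-up in the clock gene values was not tested. Of 5 endothelial markers 3 were called lower in HFD than in LFD, and of 4 mesothelial markers 3 as well. Of 5 fibroblast markers 2 were called higher in HFD, and no B cell marker and none of the 3 T cell markers tested was called. From HFD to SW, 2 of 4 B cell markers were called higher and 1 fibroblast marker lower. Against LFD, 4 endothelial and 2 mesothelial markers were called lower in SW. No other marker of these types was called in the SW comparisons.

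Of 23 other listed genes of the clock, 22 were tested in adipocytes, and 5 were called higher and 3 lower in HFD than in LFD, beside the 26.5% and 25% of all genes. Those lower included the PAR bZIP genes Tef and Hlf, relatives of Dbp (-0.69, SE 0.12, adjusted p = 0.0012, and -1.70, SE 0.29, adjusted p = 0.00107). Nfil3, which opposes Dbp at D-boxes, was higher (0.88, SE 0.29, adjusted p = 0.0255), as was Bhlhe41, a repressor at E-boxes (1.00, SE 0.16, adjusted p = 0.000804). Wee1, a cell cycle kinase gene with clock-driven transcription, was higher (3.12, SE 0.41, adjusted p = 0.000224), from 0.567 to 0.791 CPM in LFD to 4.87 to 6.84 in HFD. It rested on only 4, 11 and 6 counts in the LFD libraries and on 6 in SW library 1. The kinase gene Gsk3b (0.68) and the ubiquitin ligase gene Fbxw11 (0.31) were higher as well. Nfil3 lost its call without HFD library 2 or LFD library 1 or 2 (0.48 to 0.87), and Fbxw11 lost its call without any one of 6 libraries (HFD 1 or 3, LFD 2 or 3, SW 2 or 3) and under 3 other processing choices (0.19 to 0.32). The median of the 22 was -0.11.

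From HFD to SW, 3 of the 22 were called higher, among them Tef (0.46) and Hlf (0.97), and 3 were called lower, Wee1 (-1.83), Gsk3b (-0.51) and Fbxw11 (-0.38), beside 15.6% and 15.9% of all genes. Of these named genes, Wee1 alone kept its call without any single library. Tef lost its call without HFD library 1 or 3 or SW library 3, Hlf without HFD library 2 or 3 or SW library 2 or 3, Gsk3b without HFD library 3, and Fbxw11 without HFD library 1 or 3 or SW library 1 or 3, with log2 fold changes of 0.38 to 0.47, 0.80 to 0.90, -0.43, and -0.38 to -0.33. Hlf also lost its call with thinned counts (0.68), and Fbxw11 in a fit of the HFD and SW libraries alone. Between SW and LFD mice only Bhlhe41 was called higher (1.03, SE 0.17, adjusted p = 0.00209) and only Timeless, a replication and checkpoint gene, lower (-0.57, SE 0.16, adjusted p = 0.034). The call of Timeless was lost without LFD library 2 or 3 or SW library 2 or 3 (-0.59 to -0.43), with thinned counts and in a fit of SW and LFD libraries alone. Bhlhe41 stood at 8.82 to 10.8 CPM in LFD, at 16.2 to 22.0 in HFD and at 17.4 to 22.8 in SW. Its SW and HFD ranges overlapped, and both lay above the LFD range.

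Signals known to act on Per1 were read from 2 further lists. Of 6 glucocorticoid-responsive genes, Pdk4 (1.01) and Klf9 (1.25) were called higher and Tsc22d3 (-0.84) lower in HFD than in LFD adipocytes. Over all genes tested, 26.5% were called higher and 25% lower there. The glucocorticoid list summed to 432 to 518 CPM in LFD, 383 to 501 in HFD and 501 to 592 in SW. Of 8 immediate early genes, Fos, Junb, Atf3 and Dusp1 were called higher in HFD, and 7 of 8 were called higher in SW than in LFD. The shares of all genes called higher were 26.5% and 10.9%. The immediate early list summed to 664 to 1433 CPM in LFD, 1287 to 2345 in HFD and 2081 to 3386 in SW. The immediate early sum reached its highest value in SW. Per1 ran from 44.7 to 49.4 CPM in LFD, from 18.3 to 44.6 in HFD and from 42.3 to 59.5 in SW. The part of these signals in the Per1 values was not tested.

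In the SVC, only HFD and SW had more than 1 library that could be used, and the 2 HFD libraries were unlike each other. HFD library 2 held 33.5% mitochondrial counts and library 1 held 6.34%. The immediate early list summed to 894 CPM in library 2 and 7053 in library 1, and the glucocorticoid list to 151 and 595. For 8 of the 10 members library 1 was the higher. Per1 differed 4.28-fold (138 CPM in library 1 and 32.1 in library 2), Per2 3.43-fold and Nr1d2 2.75-fold, whereas Nr1d1 stood at 28.8 and 29.4 CPM and Cry1 at 6.96 and 7.04. The adipocyte markers summed to only 519 to 1230 CPM over all SVC libraries, and the macrophage markers to 7598 to 18907.

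From HFD to SW in the SVC, Clock (-2.14, SE 0.42, adjusted p = 0.0377) and Nr1d2 (-2.08, SE 0.51, adjusted p = 0.0437) were called lower and Nr1d1 higher (1.23, SE 0.26, adjusted p = 0.0382). These were 1 member called higher and 2 lower, beside 5.71% and 11.7% of all genes. Clock stood at 24.8 and 13.5 CPM in HFD and at 2.99, 5.66 and 4.27 in SW. Nr1d2 stood at 33.0 and 12.0 CPM in HFD and at 3.40, 6.32 and 6.13 in SW. Nr1d1 stood at 28.8 and 29.4 CPM in HFD and at 70.5, 51.9 and 82.7 in SW. For Clock and Nr1d2 every SW library was below both HFD libraries, and for Nr1d1 above them. The groups did not overlap for 2 members higher in SW (Cry2 and Nr1d1) and 5 lower (Arntl, Clock, Per3, Cry1 and Nr1d2), beside 58.6% of all genes. All 3 calls were lost without HFD library 1 (-1.56, -1.10 and 1.29, the lone HFD library then assumed to vary like the other groups) and without any 1 of the SW libraries, with log2 fold changes of -1.94 to -2.49 for Clock, -1.85 to -2.34 for Nr1d2 and 1.07 to 1.30 for Nr1d1. They were also lost after a correction for GC content (-0.93, -0.94 and 0.37), and that of Nr1d2 with limma-voom (-1.93). The longest transcripts of Clock and Nr1d2 had the lowest GC content of the members, 40.9% and 41.8%, and that of Nr1d1 had 56.8%. With this correction 0 of all genes were called in this comparison. The part of GC content in these values was not tested.

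Of the members that did not pass in the SVC, Arntl stood at 20.9 and 11.4 CPM in HFD and at 6.39, 10.0 and 6.35 in SW (-1.08, SE 0.39, adjusted p = 0.0887), the HFD libraries again above all SW libraries. Cry2 stood at 15.8 and 10.1 CPM in HFD and at 19.6, 25.3 and 19.4 in SW (0.73, SE 0.30, adjusted p = 0.115). Dbp stood at 15.2 and 11.9 CPM in HFD and at 15.2, 18.7 and 18.0 in SW (0.35, SE 0.25, adjusted p = 0.312). Per3 stood at 7.07 and 3.45 CPM in HFD and at 1.55, 2.98 and 2.19 in SW (-1.22, SE 0.51, adjusted p = 0.121). Per1 stood at 86.8, 103 and 89.2 CPM in SW, between its HFD libraries (0.13, SE 0.55, adjusted p = 0.874). Its difference was 1.60 without HFD library 1 and -0.56 without HFD library 2, and that of Arntl was -0.51 and -1.44. Per2 stood at 8.52 and 2.48 CPM in HFD and at 2.06, 4.92 and 2.63 in SW (-0.76, SE 0.65, adjusted p = 0.393), with overlapping groups. Cry1 stood at 6.96 and 7.04 CPM in HFD and at 4.64, 6.57 and 3.62 in SW (-0.49, SE 0.39, adjusted p = 0.364).

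The labels list 3 LFD libraries of the SVC, but only a single library could be placed in that group. It had no replicate among the libraries used, so its values were compared without a test. Nr1d1 stood there at 223 CPM, 7.68 times the HFD mean and 3.27 times the SW mean. Dbp stood at 52.9 CPM, 3.89 and 3.06 times those means, and Cry2 at 37.9 CPM, 2.93 and 1.77 times. These were the 3 members above both HFD libraries. Another 5 (Arntl at 8.73 CPM, Clock at 6.46, Per3 at 2.62, Cry1 at 2.10 and Nr1d2 at 8.38) were below both, and Per1 (56.6) and Per2 (5.06) lay between them. The share of all genes outside the HFD libraries was not counted, so this order is not a result about the members. The LFD library was the smallest, and Cry1 rested on 12 counts in it. Its mesothelial markers summed to 821 CPM, beside 12.8 to 148 in the other SVC libraries, and its fibroblast markers to 9689, beside 3585 to 6483. Its endothelial markers summed to 858 CPM, beside 185 to 350 in the others, and its macrophage sum of 7598 CPM was the lowest. Their part in the clock gene values was not tested.

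**Figure D4:**
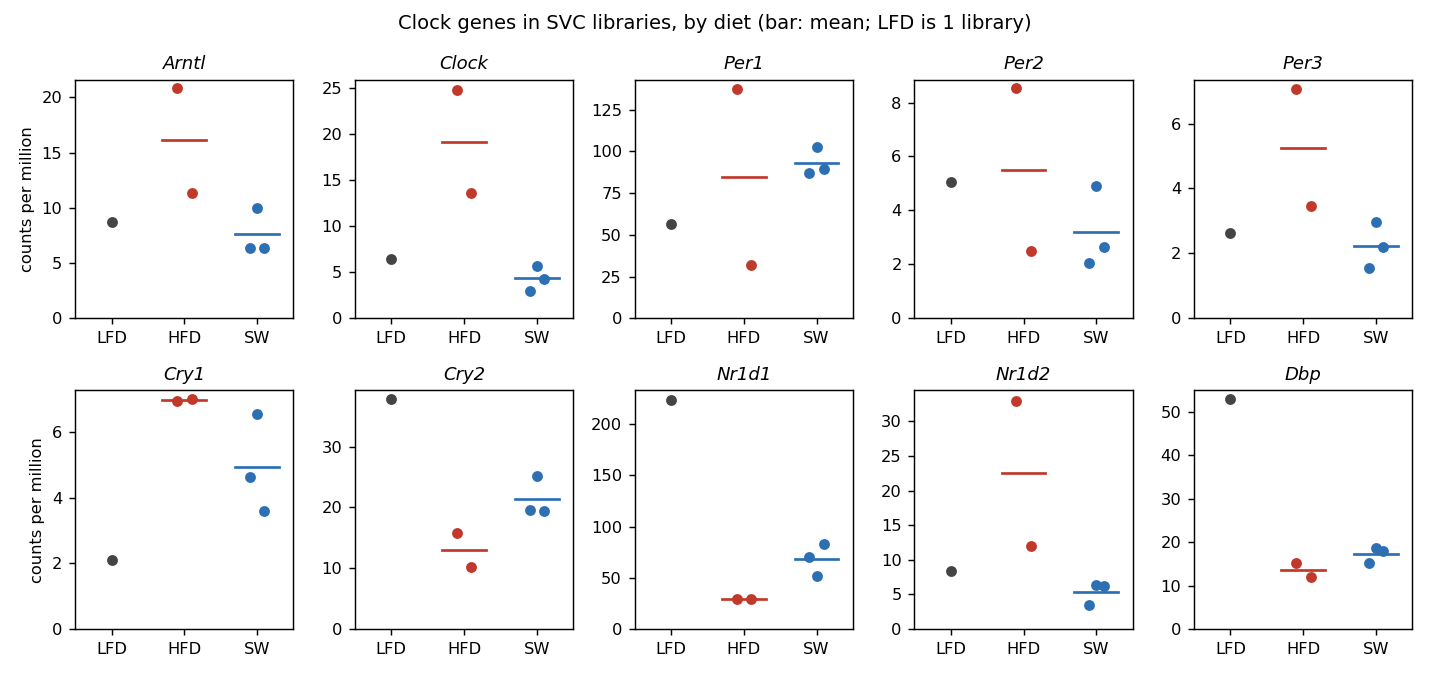
Levels of the 10 clock genes in SVC libraries, in CPM (each vertical axis from 0), for LFD (1 library), HFD (2) and SW (3) mice, with bars at the mean where there is more than 1 library. Nr1d1, Dbp and Cry2 are highest in the LFD library, and Clock and Nr1d2 highest in HFD.

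The fractions were compared within a diet in 1 fit of all 15 libraries. In HFD mice, Clock (1.24, SE 0.27, adjusted p = 0.00525) and Cry2 (0.72, SE 0.22, adjusted p = 0.0262) were called higher in adipocytes than in SVC, and Per1 (-1.80, SE 0.43, adjusted p = 0.00852) and Dbp (-0.81, SE 0.21, adjusted p = 0.0107) lower, beside 12.9% of all genes called higher and 16.2% lower. Per1 was -0.52 without SVC HFD library 1 and no longer called. Clock and Cry2 lost their calls without SVC HFD library 2 (0.93 and 0.51), and Cry2 also without adipocyte HFD library 2 or 3 (0.64 and 0.67). With the GC correction Per1 (-1.31, adjusted p = 0.114) and Dbp (-0.13, adjusted p = 0.784) lost their calls and Nr1d1 was called higher (1.04). In a fit of the HFD libraries alone Per1, Cry2 and Dbp were no longer called (adjusted p = 0.0829, 0.096 and 0.0538), and Cry2 lost its call with thinned counts. The other members did not pass, with Arntl at 0.38 (SE 0.26), Per2 at -0.02 (SE 0.42), Per3 at 0.02 (SE 0.32), Cry1 at 0.21 (SE 0.28), Nr1d1 at 0.47 (SE 0.25) and Nr1d2 at 0.42 (SE 0.37). Of these, Arntl (0.79) and Nr1d2 (1.21) were called higher without SVC HFD library 1.

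In SW mice, 5 members were called higher in adipocytes and 1 lower, beside 32.8% and 35.6% of all genes. Clock was higher by 2.56 (SE 0.26, adjusted p = 2.11e-06), 5.91-fold. Nr1d2 was higher by 2.47 (SE 0.35, adjusted p = 3.79e-05), Per3 by 1.79 (SE 0.31, adjusted p = 0.000177), Arntl by 0.67 (SE 0.24, adjusted p = 0.0235) and Cry2 by 0.50 (SE 0.19, adjusted p = 0.0326). Per1 was lower (-1.29, SE 0.40, adjusted p = 0.0109). Clock, Nr1d2 and Per3 kept their calls without any single library. Arntl and Cry2 lost theirs without SVC SW library 1 or 3 or adipocyte SW library 2 or 3 (0.57 to 0.65 and 0.37 to 0.53), and Per1 without adipocyte SW library 1 (-1.07). Arntl and Cry2 also lost their calls in a fit of the SW libraries alone, and Cry2 with thinned counts. Per2 (0.63, SE 0.39), Cry1 (0.45, SE 0.26), Nr1d1 (0.15, SE 0.22) and Dbp (-0.18, SE 0.18) did not pass. Without SVC SW library 2, Per2 (1.24) and Cry1 (0.85) were called higher, and Per2 (0.71) also without SVC HFD library 2. The GC correction moved most of these values. Clock went from 2.56 to 1.27 and Nr1d2 from 2.47 to 1.26, both still called, while Per3 rose to 2.57 and Cry2 to 1.64. Per1 was at 0.03 with it, and Per2 (1.66), Cry1 (1.10), Nr1d1 (1.36) and Dbp (1.17) were called higher. The labels do not tie the fractions to the same mice, and the markers named above differed between them.

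An interaction term tested if adipocytes and SVC differed in the step between HFD and SW. Clock (1.33, SE 0.36, adjusted p = 0.0159), Per3 (1.78, SE 0.44, adjusted p = 0.0107) and Nr1d2 (2.06, SE 0.49, adjusted p = 0.00915) had a positive difference, adipocytes minus SVC. These were 3 members called higher and 0 lower (0 lower also by DESeq2 and limma-voom, and 0 with an unadjusted p under 0.05), beside 15.7% and 11.4% of all genes. The following steps are from the separate fit of each fraction, so their differences need not equal those of the fit of all 15 libraries. Per3 rose in adipocytes by 0.72 and stood at -1.22 in SVC. Nr1d2 stood at 0.13 in adipocytes and fell in SVC, and Clock fell in both, further in SVC. All 3 were lost without SVC HFD library 1 (0.91, 1.25 and 1.26), and with the GC correction Clock (0.31) and Nr1d2 (1.12) were lost while Per3 was kept (2.28) and Dbp was called (1.31). For Nr1d1 the difference was -0.32 (SE 0.33, adjusted p = 0.508) and for Cry2 -0.22 (SE 0.29, adjusted p = 0.623), so a difference between the fractions was not shown for these. Nor did Arntl (0.29, SE 0.35), Per1 (0.50, SE 0.58), Per2 (0.64, SE 0.57), Cry1 (0.24, SE 0.38) and Dbp (0.63, SE 0.28) pass, of which Per1 (1.26), Per2 (1.30) and Dbp (0.82) were called without SVC HFD library 2.

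**Figure D5:**
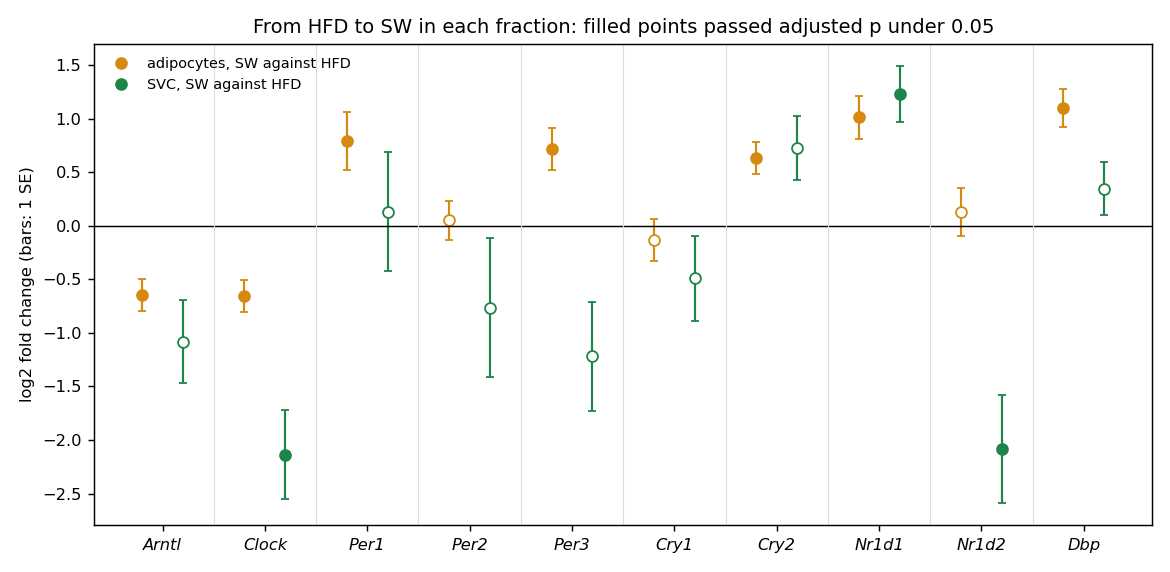
Log2 fold changes from HFD to SW of the clock genes in adipocytes and in SVC, each from the fit of its own fraction, with bars of 1 SE and filled points for an adjusted p under 0.05. Nr1d1 lies above 0 in both fractions (1.01 and 1.23), Clock below 0 in both (-0.66 and -2.14), and Per3 and Nr1d2 lie on opposite sides of 0.

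Per kilobase of the longest transcript, Nr1d1 was the most abundant member in LFD adipocytes, at 34.8 to 44.8 CPM per kb. Cry2 (10.4 to 13.0), Per1 (9.57 to 10.6), Dbp (7.75 to 12.0) and Nr1d2 (7.83 to 11.6) followed with overlapping ranges. Arntl (4.49 to 5.05), Clock (3.74 to 4.87) and Cry1 (2.93 to 5.10) overlapped as well, Per3 was at 2.19 to 2.30 and Per2 was lowest at 1.31 to 1.55. In HFD adipocytes Nr1d1 was still highest at 17.6 to 19.4 CPM per kb, and Nr1d2 (6.37 to 8.91), Cry2 (5.50 to 7.30), Arntl (6.11 to 7.15), Per1 (3.91 to 9.54), Clock (5.51 to 5.80) and Dbp (4.82 to 5.89) formed 1 chain of ranges, each overlapping the next. In SW mice Nr1d1 (25.8 to 48.4) was again highest. Dbp (9.50 to 12.0), Per1 (9.05 to 12.7), Cry2 (8.94 to 11.9) and Nr1d2 (5.93 to 10.7) followed with overlapping ranges, the same genes as in LFD mice.

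As a description over the 9 adipocyte libraries, which include the diet groups and differ in depth, the log2 level of Dbp went with that of Nr1d1 (Pearson r = 0.912), Tef (0.882), Cry2 (0.876) and Per3 (0.796) and against that of Arntl (-0.773). That of Arntl went with Clock (0.897), and its r with Per2, Cry1 and Nr1d2 was -0.01, 0.04 and 0.12. Among all 14461 genes tested, those most like Arntl outside the members included Mbtps1 (0.982), Prkdc (0.972), Zfp260 (0.972) and Wac (0.971). Those most like Dbp were Xkrx (0.955), Gm10718 (0.947), Msantd2 (0.946), Tmem81 (0.943) and Fam71f2 (0.943).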

How the data were processed

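RNA of adipocytes and of SVC from epididymal fat was sequenced (TruSeq libraries). Per the labels, the authors aligned reads with Bowtie2 to mm9, made estimated counts per gene with RSEM and used limma. The deposited values are these estimated counts, already whole, without normalization. Tool versions, and whether the counting used strand, are not given in the sources used here. The labels list 18 libraries in 26 records; nothing says if repeat runs were summed. Column names give fraction, diet and a number found in no label, and libraries are numbered here within their group in the order of that number. This placed 15 libraries, and 3 columns of values whose names match no group were not used. The titles of the SW samples name the low-fat diet alone, and the treatment label, which gives the switch, was used. No 2 libraries of a group agreed within counting noise. The chi-square per degree of freedom between 2 libraries of a group was 408 for the 2 SVC HFD libraries. It ran from 28.0 to 65.4 among SVC SW libraries and from 13.7 to 96.8 among adipocyte libraries. The labels do not say that each library is a separate mouse, so p-values measure the spread between these libraries, part of which may be technical. The paper gives n = 3 per group for this sequencing and says that its legends state biological replicates.

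Each fraction was fitted with edgeR 4.0.16 in R 4.3.3: counts rounded, TMM factors, filterByExpr (minimum count 10), all diet groups without covariates in the quasi-likelihood fit (robust), and Benjamini-Hochberg adjusted p-values at 0.05. All 10 members passed the filter in each fit. Fractions were compared in 1 fit of 15 libraries. The SE is the log2 fold change divided by the square root of F. SVC comparisons with LFD (1 library that could be used) had no test. The step was tested on simulated data. Totals ran from 6142895 to 23725647 counts in adipocytes and from 5781902 to 22195810 in SVC.

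The members, the other lists, the tests and the alternatives were chosen with earlier results of these data known. All members were named in every comparison. Of 23 other clock genes (Ciart and Noct, like the macrophage marker Adgre1, under older symbols in the tables) those called in adipocytes between HFD and LFD, or counted 5 or fewer, were named. The genes most alike were the 5 with the highest Pearson r of log2 CPM (prior count 2). Some genes that these rules would name are not reported here, though the counts include them. Within-library ratios used an added count of 0.5. Transcript length, GC content and exon overlaps came from GENCODE M21 (GRCm38), promoter windows from RefSeq (GRCm38.p6), matched by symbol for 9 of 10 members; the files hold no coordinates. Alternatives were RLE and upper-quartile factors, no count filter, DESeq2 1.42.0, limma-voom (limma 3.58.1), thinning to the smallest library, a GC correction (spline with 5 degrees of freedom), a fit of only the 2 groups in question (4 for the interaction), and each library left out in turn. Tables and plots used Python 3.11.15 with pandas 2.3.3 and matplotlib 3.10.9.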

Additional observations from a re-analysis of the deposited data

Results flagged for a closer look

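The step from HFD to SW differed between adipocytes and SVC, by the interaction term itself (edgeR, adjusted over all genes), for 3 clock genes. The log2 difference, adipocytes minus SVC, was 1.33 for Clock (adjusted p = 0.0159), 1.78 for Per3 (adjusted p = 0.0107) and 2.06 for Nr1d2 (adjusted p = 0.00915). The levels that follow are scaled within each fraction, whereas the differences came from the fit of all 15 libraries. In SVC, Clock stood at 13.5 to 24.8 CPM in HFD and 2.99 to 5.66 in SW, Per3 at 3.45 to 7.07 and 1.55 to 2.98, and Nr1d2 at 12.0 to 33.0 and 3.40 to 6.32. In adipocytes, Clock stood at 53.7 to 56.5 and 27.8 to 39.0, Per3 at 5.79 to 7.39 and 7.46 to 13.0, and Nr1d2 at 29.7 to 41.6 and 27.6 to 50.0. Without SVC HFD library 1, in which the immediate early genes summed to 7053 CPM (894 in the other), the 3 differences were 0.91, 1.25 and 1.26 and none was called. Without the other SVC HFD library, number 2, with 33.5% mitochondrial counts (6.34% in library 1), they were 1.72, 2.22 and 2.65, all called. With a GC correction they were 0.31, 2.28 and 1.12, of which only that of Per3 was called.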

How the results depend on the processing

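No paired analysis was possible because the numbers in the column names are in no label, so the columns carry no replicate numbers that could serve as a block. In adipocytes between HFD and LFD, the clock genes called higher went from 2 to 0 with upper-quartile factors, thinning or the GC correction, and ran from 0 to 2 when 1 library was left out, while those called lower ran from 4 to 5. Between SW and HFD, those called higher ran from 3 to 5 and those called lower stayed at 2, and between SW and LFD both stayed at 0. In SVC between SW and HFD, those called higher went from 1 to 0 with the GC correction (0 to 1 without 1 library), and those called lower from 2 to 1 with limma-voom and to 0 with the GC correction (0 to 3 without 1 library). All genes called there went from 2849 to 5226 with DESeq2, 1557 with limma-voom and 0 with the GC correction, and ran from 0 to 6213 without 1 library. Between fractions in HFD mice, those called higher went from 2 to 1 with thinning or with only the groups compared (0 to 4 without 1 library), and those called lower from 2 to 0 with the GC correction or only the groups compared (1 to 2). All genes called there went from 5078 to 3096 with the GC correction and 2030 with only the groups compared. In SW mice, those called higher went from 5 to 9 with the GC correction and to 3 with only the groups compared (3 to 7), and those called lower from 1 to 0 with the GC correction (0 to 1). With that correction Per1 was at 0.0273 (adjusted p = 0.967) and Dbp at 1.17 (adjusted p = 0.0013), both reversed in sign. For the interaction, those called higher ran from 0 to 6 without 1 library and those called lower stayed at 0, and all genes called went from 4727 to 1769 with the GC correction. Without 1 library, all genes called ran from 1522 to 4554 for SW against HFD in adipocytes (4546 with all libraries). The causes were not tested. Among the single values of the members, 41 of 1340 changed sign without being called either way. GC content was on hand for 98.8% to 99.0% of the genes tested. Counts were lowest for Per2, Per3 and Cry1, and groups of 1 to 3 libraries limit all SVC values.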

Other observations

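In SVC from HFD to SW, 1 of 21 other clock genes tested was called higher and 3 lower, beside 5.71% and 11.7% of all genes. Tef, the PAR bZIP relative of Dbp, was higher (0.78, SE 0.20, adjusted p = 0.0469), as it was in adipocytes (0.46). Those lower included Noct, a phosphatase gene with clock-driven transcription (-1.32, SE 0.23, adjusted p = 0.0362), and Nampt, which makes an NAD precursor (-2.00, SE 0.36, adjusted p = 0.0362). All of these rest on the same 2 HFD libraries as the values of Clock and Nr1d2. The calls of Tef, Noct and Nampt were lost without HFD library 1 and without any 1 of the SW libraries, with log2 fold changes of 0.66 to 0.86, -1.47 to -1.02 and -2.14 to -1.28. With the GC correction they were 0.17, -0.85 and -0.69, none called. Tef also lost its call with limma-voom, thinned counts or no count filter. In the interaction of fraction and diet, Noct (0.95, adjusted p = 0.0121) and Nampt (1.80, adjusted p = 0.00188) were called as well, each with a positive difference, adipocytes minus SVC. Neither was called in the interaction with the GC correction (0.54 and 0.69). In adipocytes Noct stood at 184 to 231 CPM in HFD and at 149 to 185 in SW, and Nampt at 101 to 108 and 95.9 to 107.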
